A study of Homo sapiens with 2 samples.

Results

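The genes described here are 29 enzymes of the urea cycle, of amino acid breakdown and of glucose production, together with the liver-type enzymes of glycogen, fructose and pyruvate metabolism. They were chosen by symbol and known function, and each of the 29 matched 1 Ensembl gene among the 58302 in the table (G6PC is listed there as G6PC1). Their transcripts were counted by sequencing polyadenylated RNA from HK-2, an established line of human kidney cells that derives from the proximal tubule. One library, labelled Ad-Bmal1, came from cells infected for 24 h with an adenovirus that carries the Bmal1 coding sequence. BMAL1 binds DNA together with CLOCK and drives the circadian clock. The other library, labelled Ad-GFP, came from cells infected for 24 h with an adenovirus carrying green fluorescent protein. All cells were in RPMI-1640 medium with 10% fetal bovine serum, penicillin and streptomycin, so both groups carry a virus, and the promoter of the vectors is not given in the sources used here. The title of the series ties Bmal1 to kidney injury by cisplatin and to a liver-like state of kidney tissue, and neither library was labelled as treated with cisplatin.

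The urea cycle turns ammonia into urea in the mitochondria and cytosol of hepatocytes, and parts of it make arginine in the proximal tubule of the kidney. Gluconeogenesis runs in liver and in the proximal tubule, and uses pyruvate carboxylase, PEP carboxykinase, fructose bisphosphatase and glucose-6-phosphatase to turn pyruvate, lactate and amino acid carbon into glucose. Amino acid breakdown feeds both, since it releases nitrogen for urea and carbon for glucose.

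With 1 library per group there is no replicate check and no p-value, and each difference is between these 2 libraries. The library labelled Ad-Bmal1 held 20051735 counts and the library labelled Ad-GFP 20032652. Levels are given as deposited counts and as CPM, the counts scaled to a common library size with TMM factors. Genes at 1 CPM or more in either library count as measured, and 1 CPM is 19.8 counts in the library labelled Ad-Bmal1 and 20.3 in the library labelled Ad-GFP. Ratios are Ad-Bmal1 over Ad-GFP with an exact 95% interval that covers counting error only. BMAL1 itself had 133 counts in the library labelled Ad-Bmal1 and 204 in the library labelled Ad-GFP, a ratio of 0.667 (0.532 to 0.834). The label and the targeted gene thus pointed opposite ways, a limit on each direction given below. Vector and endogenous transcripts of it cannot be told apart in these counts.

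Of the 29 genes 16 were measured, 7 had counts but stayed under 1 CPM in both libraries, and 6 had no count in either. The 6 without a count were OTC, ARG1, GLYAT, PCK1, FBP1 and PKLR. At this depth a count of 0 allows a level of up to 0.151 CPM in the library labelled Ad-Bmal1 and of up to 0.148 CPM in the library labelled Ad-GFP, which is 3 counts. The 13 genes that were not measured had between 0 and 10 counts in the library labelled Ad-Bmal1 and between 0 and 18 in the library labelled Ad-GFP. In bulk RNA, fewer cells of a type and less RNA per cell cannot be told apart.

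**Figure D1:**
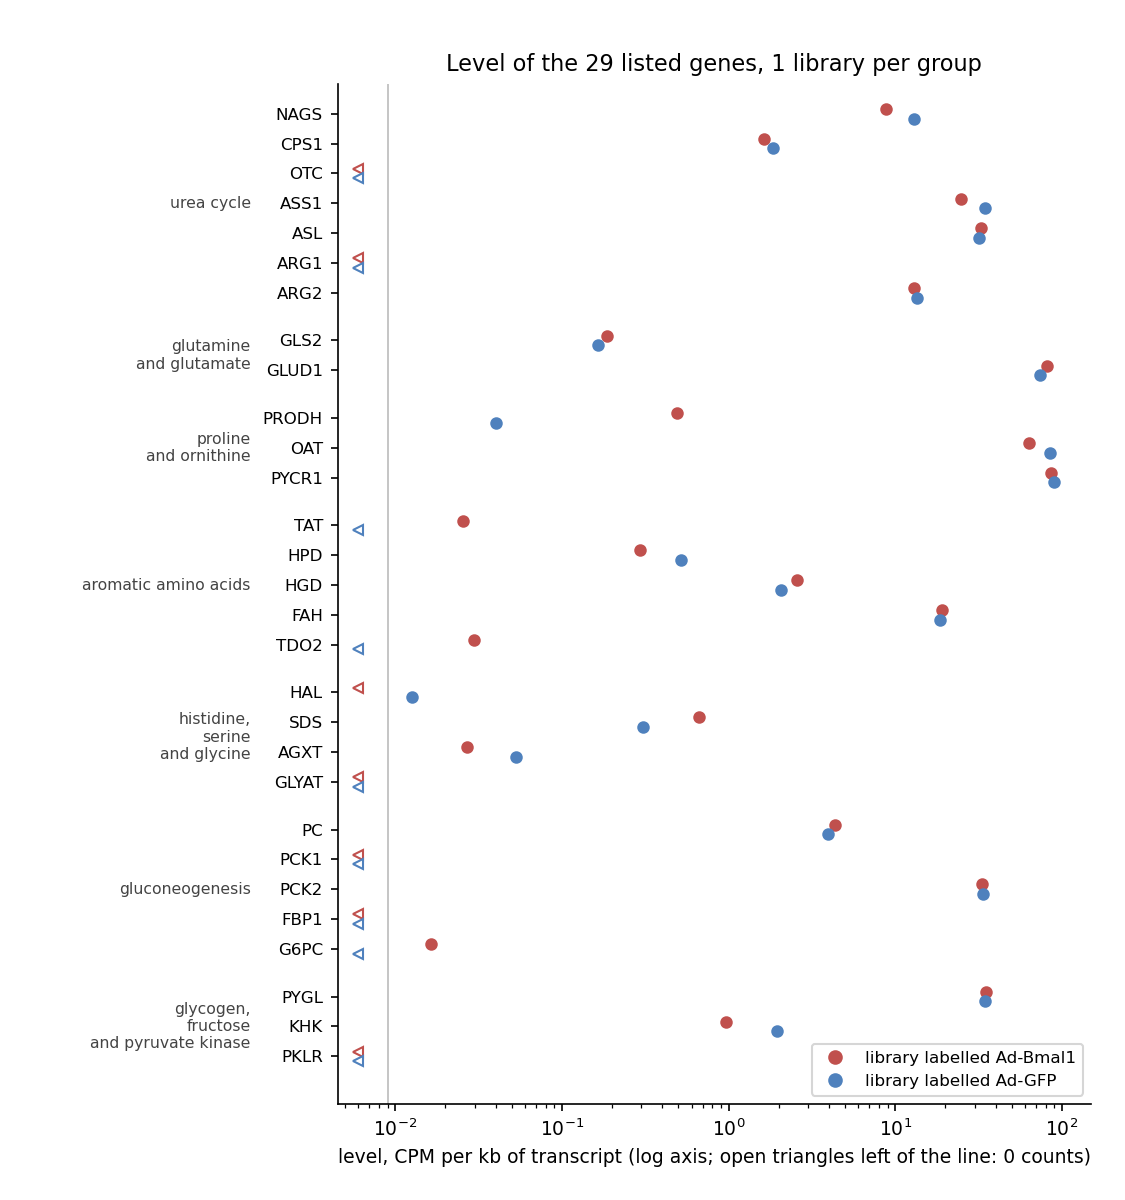
Level of each listed gene in CPM per kb of its longest coding transcript (log axis), by role, in the library labelled Ad-Bmal1 (red) and the library labelled Ad-GFP (blue); open triangles mark 0 counts. OTC, ARG1, GLYAT, PCK1, FBP1 and PKLR have no count in either library, and PYCR1, GLUD1 and OAT lie highest.

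Per kb of transcript, PYCR1, GLUD1 and OAT stood highest, at 86.4, 81.3 and 63.2 CPM per kb in the library labelled Ad-Bmal1, against 90.1, 74.0 and 84.7 in the library labelled Ad-GFP. PYGL, PCK2, ASL and ASS1 followed, between 24.8 and 34.9 CPM per kb in the library labelled Ad-Bmal1 and between 31.7 and 34.7 in the library labelled Ad-GFP. The order among these 4 was PYGL, PCK2, ASL and ASS1 in the library labelled Ad-Bmal1, and ASS1 stood first of them in the library labelled Ad-GFP. Without replicates the order of such close neighbours has no spread to be set against. FAH, ARG2 and NAGS had 19.2, 13.0 and 8.81 CPM per kb in the library labelled Ad-Bmal1, against 18.5, 13.5 and 13.0 in the library labelled Ad-GFP. PC, HGD, CPS1 and KHK stood lower, from 0.963 to 4.37 CPM per kb in the library labelled Ad-Bmal1 and from 1.85 to 3.94 in the library labelled Ad-GFP. SDS and PRODH were the lowest measured, at 0.660 and 0.492 CPM per kb in the library labelled Ad-Bmal1 against 0.307 and 0.0401 in the library labelled Ad-GFP.

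A call of higher or lower needed a measured gene, a difference of 2-fold or more and an interval excluding 1. Of the 13231 measured genes in the whole table, 1.13% were called higher by this rule and 1.74% were called lower in the library labelled Ad-Bmal1. Among the listed genes 1 was called higher, PRODH, and 1 lower, KHK. Without the size limit, 23.8% of measured genes had an interval above 1 and 21.6% an interval below 1. Of the 16 measured listed genes 2 had an interval above 1, PRODH and GLUD1, and 4 below 1, NAGS, ASS1, OAT and KHK, so the first count is under the share of all measured genes and the second close to it. The median log2 ratio of the measured listed genes was 0.0024, beside 0.0032 over all measured genes. Of the 9 listed genes with 1000 to 10000 counts in both libraries together, 1 had an interval above 1 and 2 below, while 62.2% of the 4946 measured genes in that range had an interval that excluded 1.

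**Figure D2:**
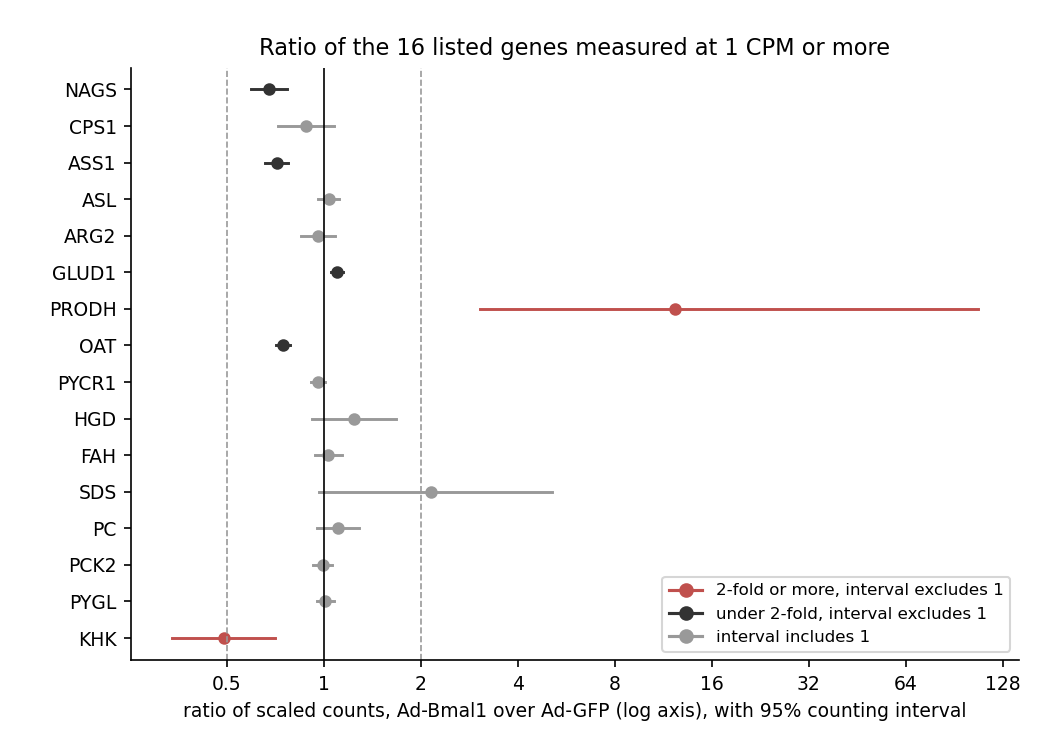
Ratio of scaled counts, Ad-Bmal1 over Ad-GFP (log axis), of the 16 measured listed genes, with bars for the 95% counting interval and dashed lines at 2-fold. PRODH (12.3) and KHK (0.490) are the points past a dashed line whose interval excludes 1, and SDS lies past it with an interval that includes 1.

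In the urea cycle the gene that makes its activator and the gene that makes argininosuccinate were lower in the library labelled Ad-Bmal1, each by less than 2-fold. NAGS (chromosome 17, 44004546 to 44009063, GRCh38), whose product N-acetylglutamate switches on carbamoyl phosphate synthetase, had 381 counts in the library labelled Ad-Bmal1 and 576 in the library labelled Ad-GFP. Its ratio was 0.677 (0.593 to 0.772). ASS1 (chromosome 9, 130444929 to 130501274), which joins citrulline to aspartate and is the step of arginine synthesis that the proximal tubule is known for, had 971 counts in the library labelled Ad-Bmal1 and 1389 in the library labelled Ad-GFP, a ratio of 0.715 (0.658 to 0.777). The 11 ASS1 pseudogenes matched by name held 2 counts in all in the library labelled Ad-Bmal1 and 6 in the library labelled Ad-GFP, few beside those of ASS1.

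The steps after and before ASS1 had intervals that included 1 or no count at all. ASL (chromosome 7, 66075798 to 66093558), which splits argininosuccinate into arginine and fumarate, had 1397 counts in the library labelled Ad-Bmal1 and 1379 in the library labelled Ad-GFP (ratio 1.04, 0.962 to 1.12). CPS1 (chromosome 2, 210477682 to 210679107), the mitochondrial entry enzyme of the cycle, had 188 counts in the library labelled Ad-Bmal1 against 218 in the library labelled Ad-GFP, with an interval of 0.722 to 1.08 around a ratio of 0.882. OTC, the next mitochondrial step, had no count in either library. The difference between the ratios of ASS1 and ASL was not tested, although their intervals do not overlap.

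The last step of the cycle, arginase, was present as ARG2 and not as ARG1. ARG2 (chromosome 14, 67619798 to 67651720), the mitochondrial arginase known from kidney, had 526 counts in the library labelled Ad-Bmal1 and 560 in the library labelled Ad-GFP (ratio 0.961, 0.852 to 1.08). ARG1, the cytosolic arginase of liver, had 0 counts in both. Of the exonic bases of ARG2 37.4% overlap exons of VTI1B on the other strand, and reads from that stretch cannot be assigned, since no source used here gives the strand setting of the counting.

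Promoter sequence is shown because BMAL1 and CLOCK bind E-boxes. The genes are ASS1, NAGS and OAT, the 3 measured genes with an interval below 1 other than KHK. CPS1 is shown too, although its interval included 1. It was the only listed gene with a window that held both forms searched. The windows are RefSeq's on GRCh38.p14, 250 bases before the annotated start, and 23 of the 29 genes had at least 1, giving 31 windows. No window was listed for PRODH, KHK, HGD, PCK1, PYCR1 and TAT. The letters searched, on both strands, were the E-box CACGTG, which reads the same on either strand, and the variant CACGTT with its reverse complement AACGTG. Capitals mark these letters, and each sequence runs 5′ to 3′ on the gene's strand. The window of ASS1 is chr9:130444711-130444960 (plus strand), that of NAGS chr17:44004372-44004621 (plus), that of OAT chr10:124418924-124419173 (minus) and that of CPS1 chr2:210519468-210519717 (plus).
ASS1: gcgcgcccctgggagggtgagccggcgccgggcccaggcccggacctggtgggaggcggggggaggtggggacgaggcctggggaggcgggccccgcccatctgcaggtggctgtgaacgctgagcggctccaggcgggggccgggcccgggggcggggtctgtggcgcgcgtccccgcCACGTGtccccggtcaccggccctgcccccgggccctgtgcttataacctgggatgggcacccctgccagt
NAGS: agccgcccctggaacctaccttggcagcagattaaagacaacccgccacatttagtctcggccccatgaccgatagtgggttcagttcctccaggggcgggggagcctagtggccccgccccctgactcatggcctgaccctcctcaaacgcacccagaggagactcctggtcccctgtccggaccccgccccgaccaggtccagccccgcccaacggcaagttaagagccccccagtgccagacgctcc
OAT: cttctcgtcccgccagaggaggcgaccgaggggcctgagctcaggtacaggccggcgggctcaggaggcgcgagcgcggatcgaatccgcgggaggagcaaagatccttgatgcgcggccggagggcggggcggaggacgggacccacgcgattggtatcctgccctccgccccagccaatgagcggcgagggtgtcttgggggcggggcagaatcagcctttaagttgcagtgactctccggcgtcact
CPS1: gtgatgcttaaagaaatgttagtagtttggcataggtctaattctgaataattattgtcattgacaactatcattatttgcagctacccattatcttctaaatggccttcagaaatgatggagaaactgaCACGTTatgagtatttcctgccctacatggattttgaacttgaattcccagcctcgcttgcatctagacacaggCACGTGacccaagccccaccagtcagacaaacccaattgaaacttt

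Where a gene had several windows, the first that holds these letters was printed, so a match was favoured for ASS1 and CPS1. The ASS1 stretch, from 1 of 2 annotated starts, holds CACGTG with its first base 71 bases before the start. The CPS1 stretch, from 1 of 3 annotated starts, holds CACGTG at 46 and CACGTT at 120 bases before the start. The other windows of these genes hold neither form. The NAGS and OAT stretches, each the only window of its gene, hold neither in these letters. The stretches were thus not picked on equal terms. Over windows of 250 bases before to 50 after the start, 12.2% of the 35116 windows in the table hold either form, and 7 of the 31 windows of the listed genes do, those of ASS1, CPS1, HPD, HAL, PC, G6PC and PKLR. A match describes the letters and is no evidence of binding, and which start these cells use was not measured.

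Glutamate dehydrogenase, which releases ammonia from glutamate, was slightly higher in the library labelled Ad-Bmal1, and the liver-type glutaminase was near 0. GLUD1 (chromosome 10, 87050486 to 87094866) had 4896 counts in the library labelled Ad-Bmal1 and 4560 in the library labelled Ad-GFP (ratio 1.10, 1.05 to 1.14). Its intronless copy GLUD2 had 35 counts in the library labelled Ad-Bmal1 and 34 in the library labelled Ad-GFP, and the summed counts of the pair gave the same ratio to 2 decimals, 1.10 (1.05 to 1.14). GLS2 had 10 counts in the library labelled Ad-Bmal1 and 9 in the library labelled Ad-GFP, and 82.8% of its exonic bases overlap exons of other genes.

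The genes of proline and ornithine metabolism held the largest ratio among the measured listed genes, that of PRODH. PRODH (chromosome 22, 18912777 to 18936553), the mitochondrial enzyme that starts proline breakdown, had 24 counts (1.21 CPM) in the library labelled Ad-Bmal1 and 2 counts (0.0987 CPM) in the library labelled Ad-GFP. The ratio was 12.3 with a wide interval of 3.05 to 107. PRODH was measured through the library labelled Ad-Bmal1 alone, so any call for it could only be higher. The hepatocyte markers given further on, SERPINA1 aside, were also higher in sum there, at 387 counts against 59 in the library labelled Ad-GFP, and their part in the PRODH value was not tested. Of its exonic bases 9.32% overlap other genes, and DGCR6, an overlapping gene on the other strand, had 3 counts in the library labelled Ad-Bmal1 and 4 in the library labelled Ad-GFP. The paralog PRODH2, which acts on hydroxyproline, had 1 count in the library labelled Ad-Bmal1 and 0 in the library labelled Ad-GFP.

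The other genes of this branch were abundant. OAT (chromosome 10, 124397303 to 124418976), which links ornithine to glutamate and proline, had 2563 counts in the library labelled Ad-Bmal1 and 3515 in the library labelled Ad-GFP (ratio 0.746, 0.709 to 0.785). PYCR1 (chromosome 17, 81932384 to 81942412), the mitochondrial enzyme of the last step of proline synthesis, had 3259 counts in the library labelled Ad-Bmal1 against 3477 in the library labelled Ad-GFP (ratio 0.959, 0.914 to 1.01). Its paralog PYCR3 had 324 counts in the library labelled Ad-Bmal1 against 305 in the library labelled Ad-GFP, with an interval that included 1 as well (0.927 to 1.28).

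**Figure D3:**
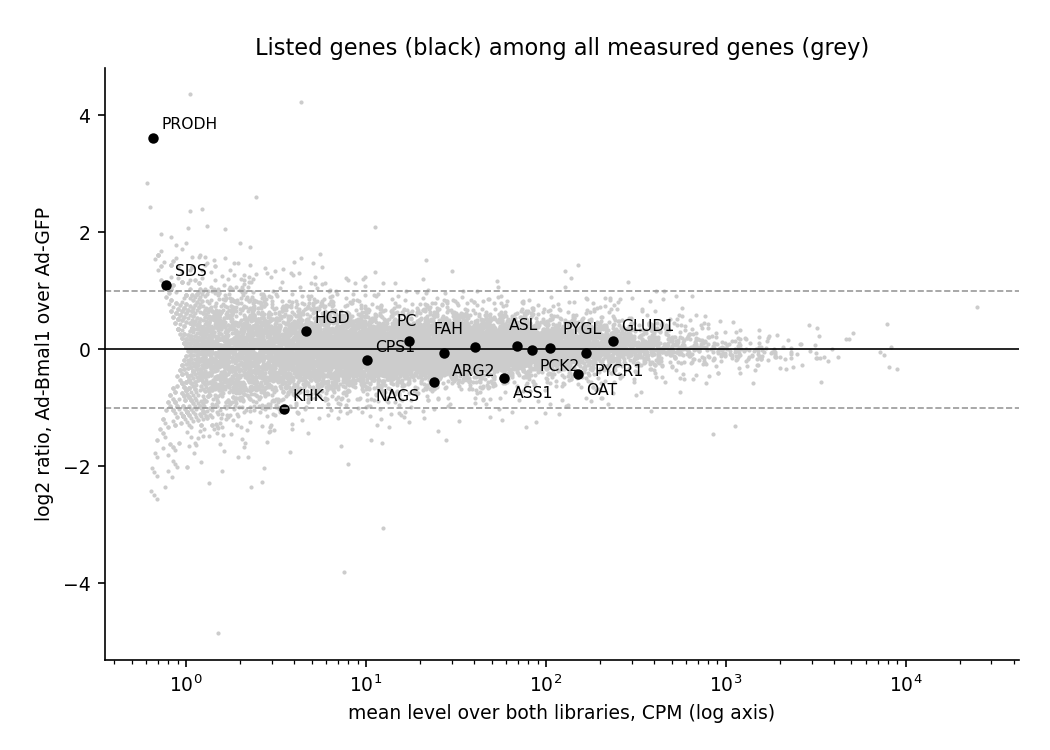
Log2 ratio, Ad-Bmal1 over Ad-GFP, against mean level in CPM (log axis) for the 13231 measured genes (grey) and the 16 measured listed genes (black, named), with dashed lines at 2-fold. PRODH (3.62) and SDS (1.10) sit at the low end of abundance, where grey points spread widest, and KHK lies at -1.03.

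Of the listed enzymes that break down tyrosine, HGD and FAH were measured, with intervals that included 1, and TAT and HPD were under 1 CPM in both libraries. TAT, the aminotransferase that starts the pathway in liver, had 2 counts in the library labelled Ad-Bmal1 and 0 in the library labelled Ad-GFP, and HPD, the next enzyme, had 10 in the library labelled Ad-Bmal1 and 18 in the library labelled Ad-GFP. HGD (chromosome 3, 120628173 to 120682571), which opens the homogentisate ring, had 102 counts in the library labelled Ad-Bmal1 and 84 in the library labelled Ad-GFP (ratio 1.24, 0.922 to 1.68). FAH (chromosome 15, 80152490 to 80186946), which releases fumarate and acetoacetate at the end of the pathway, had 817 counts in the library labelled Ad-Bmal1 and 809 in the library labelled Ad-GFP (ratio 1.03, 0.936 to 1.14). GSTZ1, the step between HGD and FAH and no listed gene, had 180 counts in the library labelled Ad-Bmal1 and 260 in the library labelled Ad-GFP (ratio 0.708, 0.582 to 0.860).

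Listed enzymes of tryptophan, histidine and glyoxylate breakdown had at most 2 counts in either library. TDO2, which opens the tryptophan ring, had 1 count in the library labelled Ad-Bmal1 and 0 in the library labelled Ad-GFP. HAL, the histidine ammonia-lyase, had 0 counts in the library labelled Ad-Bmal1 and 1 in the library labelled Ad-GFP, and AGXT, the peroxisomal aminotransferase that clears glyoxylate, had 1 count against 2 there. These levels lie under what the depth can compare. SDS (chromosome 12, 113392445 to 113426301), which turns serine into pyruvate for gluconeogenesis, had 21 counts in the library labelled Ad-Bmal1 and 10 in the library labelled Ad-GFP, a ratio of 2.15 with an interval of 0.969 to 5.11. It too reached 1 CPM in the library labelled Ad-Bmal1 alone. Its paralog SDSL had 127 counts in the library labelled Ad-Bmal1 and 189 in the library labelled Ad-GFP (ratio 0.688, 0.545 to 0.866). GLYAT, the glycine conjugating enzyme of liver and kidney, had no count. Its relative GLYATL1 had 34 counts in the library labelled Ad-Bmal1 against 21 in the library labelled Ad-GFP (ratio 1.66, 0.934 to 3.00), and AGXT2, a mitochondrial counterpart of AGXT, had 0 against 1.

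Of the 4 enzymes specific to gluconeogenesis, the first was measured, the second by its mitochondrial form alone, and the last pair was absent or at 1 count among the listed genes. PC (chromosome 11, 66848233 to 66958376), which carboxylates pyruvate, had 363 counts in the library labelled Ad-Bmal1 and 335 in the library labelled Ad-GFP (ratio 1.11, 0.953 to 1.29). PCK2 (chromosome 14, 24094053 to 24110598), the mitochondrial PEP carboxykinase, had 1648 counts in the library labelled Ad-Bmal1 against 1698 in the library labelled Ad-GFP (ratio 0.993, 0.927 to 1.06). PCK1, its cytosolic counterpart and a main control point in liver and proximal tubule, had 0 counts in both.

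FBP1, the fructose bisphosphatase of liver and proximal tubule, had 0 counts in both libraries, and its muscle paralog FBP2 had 1 in the library labelled Ad-Bmal1 and 2 in the library labelled Ad-GFP. G6PC, the glucose-6-phosphatase of liver and kidney, had 1 count in the library labelled Ad-Bmal1 and 0 in the library labelled Ad-GFP. The ubiquitous form G6PC3 had 1159 counts in the library labelled Ad-Bmal1 and 1208 in the library labelled Ad-GFP (ratio 0.982, 0.905 to 1.06). No fold is given for FBP1, FBP2 or G6PC, since both libraries were at or under 3 counts.

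Ketohexokinase was the listed gene called lower. KHK (chromosome 2, 27086747 to 27100772), which phosphorylates fructose and is abundant in liver and proximal tubule, had 46 counts (2.32 CPM) in the library labelled Ad-Bmal1 and 96 (4.74 CPM) in the library labelled Ad-GFP. It was 2.04-fold lower (1.42 to 2.97), just past the 2-fold limit. With a trend of the log2 ratio on transcript length removed, the ratio was 0.509, which ends the call. Exons of CGREF1 on the other strand cover 23.8% of the exonic bases of KHK, and CGREF1 had 93 counts in the library labelled Ad-Bmal1 and 129 in the library labelled Ad-GFP (ratio 0.738, 0.559 to 0.971).

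PYGL (chromosome 14, 50857891 to 50944736), the liver form of glycogen phosphorylase, was measured in both libraries and PKLR, the liver pyruvate kinase, in neither. PYGL had 2109 counts in the library labelled Ad-Bmal1 and 2136 in the library labelled Ad-GFP (ratio 1.01, 0.951 to 1.07, and below 1 under total counts, DESeq2 size factors and totals without the most abundant genes). The brain form PYGB had 108 CPM per kb in the library labelled Ad-Bmal1 and 100.5 in the library labelled Ad-GFP, which is 3.09 and 2.91 times the level of PYGL. The muscle form PYGM had 0 counts in the library labelled Ad-Bmal1 and 1 in the library labelled Ad-GFP. PKM, the pyruvate kinase of most tissues, had 101854 counts in the library labelled Ad-Bmal1 and 92530 in the library labelled Ad-GFP (ratio 1.13, 1.12 to 1.14), where PKLR had 0.

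**Figure D4:**
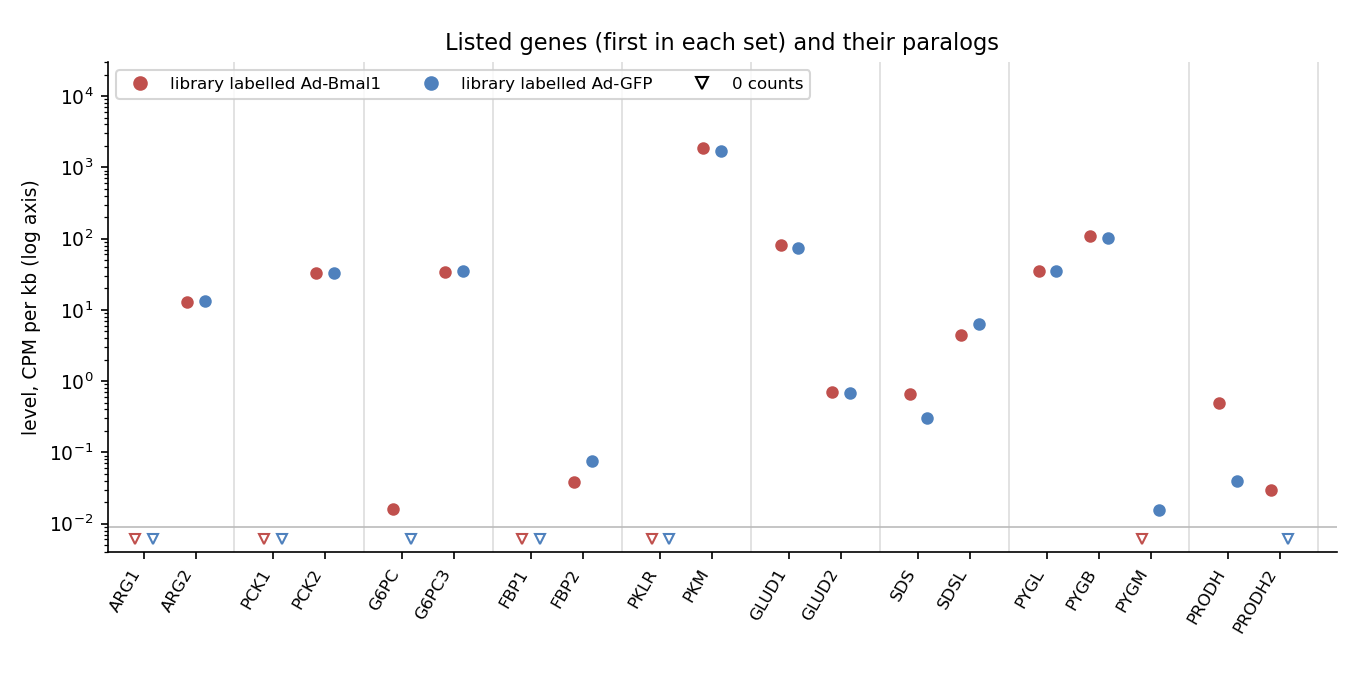
Level in CPM per kb (log axis) of listed genes, each first in its set, and of their paralogs (AGXT, GLYAT, GLS2 and PYCR1 are not drawn), in the library labelled Ad-Bmal1 (red) and the library labelled Ad-GFP (blue); open triangles mark 0 counts. ARG1, PCK1, FBP1 and PKLR have 0 counts in both libraries, while ARG2, PCK2 and PKM do not.

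ARG2, PCK2, G6PC3, PKM and SDSL were measured in both, and their liver-type counterparts ARG1, PCK1, G6PC, PKLR and SDS had between 0 and 21 counts in the library labelled Ad-Bmal1 and between 0 and 10 in the library labelled Ad-GFP. For fructose bisphosphatase neither form reached 3 counts.

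Genes around these pathways, in 9 wider lists of 169 genes with no listed gene among them, were mostly within 2-fold. Of the 127 that were measured 2 were called higher and 2 lower, beside the 1.13% and 1.74% of all measured genes. Intervals lay above 1 for 23 and below 1 for 36, beside 23.8% and 21.6%, and the median log2 ratio was -0.07. The called genes are given in the next sentences, and each rests on fewer than 100 counts per library except NR1D1.

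ACMSD, which steers tryptophan carbon away from NAD synthesis, had 24 counts in the library labelled Ad-Bmal1 and 9 in the library labelled Ad-GFP, 2.73-fold higher (1.22 to 6.67), and like PRODH reached 1 CPM in the library labelled Ad-Bmal1 alone. NR1D1, the repressor REV-ERB alpha, which acts in the clock and on gluconeogenic genes in liver, was 2.49-fold higher (2.03 to 3.08). PPM1K, the phosphatase that switches on branched-chain ketoacid dehydrogenase, had 38 counts in the library labelled Ad-Bmal1 and 84 in the library labelled Ad-GFP, a ratio of 0.463 (0.307 to 0.687). ACADSB, a dehydrogenase of isoleucine breakdown, had 33 counts in the library labelled Ad-Bmal1 against 71 in the library labelled Ad-GFP, a ratio of 0.476 (0.305 to 0.728).

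Around the urea cycle none of 7 measured genes was called, 3 intervals lay above 1 and 1 below. Glutamine synthetase GLUL had a ratio of 1.10 (1.05 to 1.16). The mitochondrial carriers that serve the cycle, SLC25A15 for ornithine and SLC25A13 for aspartate, had ratios of 1.33 (1.08 to 1.63) and 1.35 (1.25 to 1.44). A second aspartate carrier, SLC25A12, had a ratio of 0.903 (0.785 to 1.04), and a second ornithine carrier, SLC25A2, had no count in either library. Of 9 measured genes of arginine, ornithine and creatine use, 2 intervals lay above 1 and 5 below. OAZ1, the antizyme that limits polyamine synthesis, had a ratio of 0.879 (0.859 to 0.900) and spermine synthase SMS one of 0.719 (0.697 to 0.740).

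Of 8 measured genes of proline and glutamate interconversion, 2 intervals lay above 1 and 1 below. ALDH18A1, which starts proline synthesis from glutamate, had 4083 counts in the library labelled Ad-Bmal1 and 5452 in the library labelled Ad-GFP (ratio 0.766, 0.736 to 0.798). GPT2, the mitochondrial alanine aminotransferase, had a ratio of 1.20 (1.15 to 1.25). Of 10 measured genes of phenylalanine, tyrosine and tryptophan breakdown, 1 interval lay above 1, that of ACMSD, and 3 below. Of 11 measured genes of histidine, glycine, serine and threonine breakdown, 1 lay above and 3 below, with ratios of 1.01 (0.979 to 1.04) for the serine hydroxymethyltransferase SHMT2 and 0.965 (0.908 to 1.03) for the glyoxylate reductase GRHPR.

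Branched-chain amino acid and lysine breakdown was the list with most of its genes measured, 27 of 28, with 5 intervals above 1 and 7 below and a median log2 ratio of -0.04. The partners of gluconeogenesis had 8 intervals below 1 and 1 above among 17 measured genes, and a median log2 ratio of -0.14. Lactate dehydrogenase LDHA had 39813 counts in the library labelled Ad-Bmal1 and 45531 in the library labelled Ad-GFP (ratio 0.895, 0.883 to 0.907). SLC37A4, which carries glucose-6-phosphate to the glucose-6-phosphatases, had 354 counts in the library labelled Ad-Bmal1 against 570 in the library labelled Ad-GFP (ratio 0.635, 0.555 to 0.727).

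Of 15 measured genes of glycogen and fructose handling, 4 intervals lay above 1 and 1 below. PYGB had a ratio of 1.07 (1.04 to 1.11) and AKR1B1, the aldose reductase that starts fructose synthesis from glucose, one of 1.21 (1.20 to 1.22). Of 23 measured regulators of these pathways 4 intervals lay above 1 and 7 below, and HNF4A, a main activator of hepatic enzymes, had 0 counts in the library labelled Ad-Bmal1 and 1 in the library labelled Ad-GFP.

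Hepatocyte markers other than SERPINA1 were at low counts in both libraries and more frequent in the library labelled Ad-Bmal1, in which PRODH, SDS and ACMSD also had more counts. Of 16 markers 13 had more counts there, FGB had 21 in each, and SERPINA1 and CYP3A4 had fewer. Without SERPINA1, which had 5011 counts in the library labelled Ad-Bmal1 and 5999 in the library labelled Ad-GFP, the markers summed to 387 counts (19.5 CPM) in the library labelled Ad-Bmal1 and 59 counts (2.91 CPM) in the library labelled Ad-GFP. ALB, which encodes serum albumin, made up 165 of the 387 and 9 of the 59. None of the 16 was at 0 in the library labelled Ad-Bmal1, and 6 were at 0 in the library labelled Ad-GFP, APOA1, APOB, APOC3, TTR, FGG and AHSG.

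The part of these transcripts in the values of SDS and ACMSD was not tested either. In the library with 165 ALB counts, the liver enzymes ARG1, OTC, PCK1, FBP1, GLYAT and PKLR had 0 counts, and CPS1 and HPD had fewer counts than in the library labelled Ad-GFP. Of 16 proximal tubule markers 5 were measured, GGT1, SLC4A4, PDZK1, MME and KHK, of which 2 had an interval above 1, GGT1 (ratio 1.12, 1.07 to 1.16) and SLC4A4 (1.32, 1.05 to 1.67), and 2 below 1, PDZK1 (0.440, 0.361 to 0.535) and KHK. LRP2, SLC22A6, SLC22A8 and FBP1 had no count in either, and AQP1 had 4 in each. Of 6 epithelial genes 5 were measured, with 0 intervals above 1 and 4 below. KRT8 was abundant, with 19292 counts in the library labelled Ad-Bmal1 and 20712 in the library labelled Ad-GFP (ratio 0.953, 0.935 to 0.972). KRT18 had a ratio of 0.667 (0.638 to 0.698). CDH1 was under 1 CPM, with 4 counts in the library labelled Ad-Bmal1 and 1 in the library labelled Ad-GFP. In the library labelled Ad-Bmal1, distal nephron genes summed to 59 counts and endothelial genes to 12 (7 of them TIE1). Blood cell genes summed to 409 there (407 of them CSF1R). Fibroblast genes summed to 1994 there, 1681 of them COL1A1. In the library labelled Ad-GFP the same lists summed to 45, 31, 435 (433 of them CSF1R) and 1610 counts (1285 of them COL1A1). The other fibroblast genes had between 1 (COL1A2 and COL3A1) and 195 counts (LUM) in the library labelled Ad-Bmal1. In the library labelled Ad-GFP they had between 0 (COL3A1) and 171 counts (LUM).

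**Figure D5:**
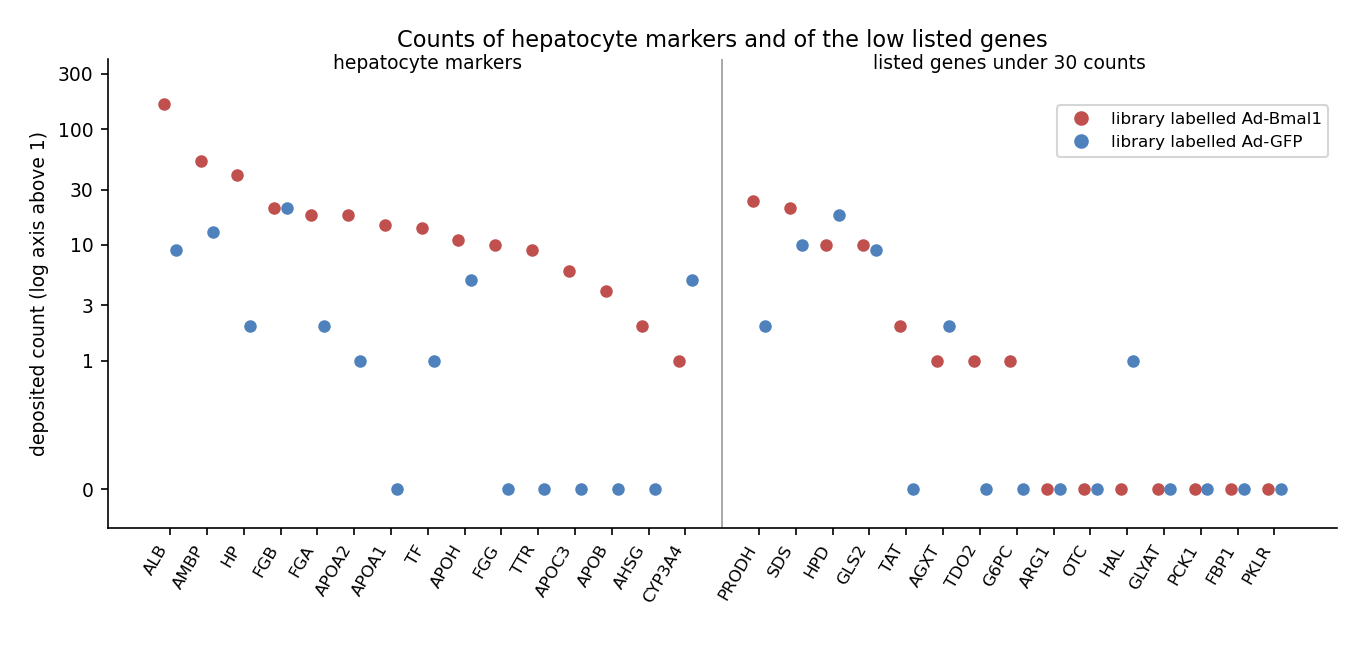
Deposited counts (log axis above 1) of 15 hepatocyte markers, without SERPINA1, and of the listed genes under 30 counts, in the library labelled Ad-Bmal1 (red) and the library labelled Ad-GFP (blue). ALB, AMBP, HP, PRODH and SDS have more counts in the library labelled Ad-Bmal1, and ARG1, OTC, GLYAT, PCK1, FBP1 and PKLR are at 0 in both.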

How the data were processed

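The 2 libraries, 1 per group, were grouped by sample title. The values deposited by the authors are whole-number counts per Ensembl gene. The submitters' processing notes name HISAT2 and the builds GRCh38 and hg38. Paired reads of 150 bp came from polyadenylated RNA, per the labels' protocols. How reads were assigned to genes, with which strand setting and gene models, is not given in the sources used here. The labels write out the name HK-2 in 2 ways, and both libraries were taken as that line.

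CPM values use TMM factors from edgeR 4.0.16 in R 4.3.3. A single library in each group leaves no residual degrees of freedom, so no quasi-likelihood test was run. Each ratio has a conditional binomial interval (exact, Clopper-Pearson) for counting error alone, and that error may be understated because no molecular identifiers are named in the protocols. Symbols came from a table of gene names, and coordinates, exon overlap and the length of the longest coding transcript were read from the GRCh38 annotation GENCODE v29, in which 99.5% of the identifiers were found. Scripts were tested on simulated data with known changes.

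The listed genes, the wider lists and the rules were chosen with earlier results of these data known. All 29 listed genes and their paralogs are named, and of each wider list up to 4 called genes, or, where none was called, the 2 with the highest mean count, and a few of these are left out here. SLC25A15, SLC25A13, SLC25A12, SLC25A2, GSTZ1, SLC37A4 and HNF4A, and the overlapping genes and markers given singly, were named after their values were seen. Alternatives were other scalings, filters, fold limits, a 99% interval, thinning of the deeper library and removal of the length trend.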

Additional observations from a re-analysis of the deposited data

How the results depend on the processing

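The counts of listed genes called, 1 higher and 1 lower, held under upper-quartile scaling, DESeq2 1.42.0 size factors and a 99% interval. They also held with scaling to totals (all genes, or all but the mitochondrial and the 20 most abundant). No filter and a 1.5-fold limit, which can only add calls, added none among the listed genes. Thinning left the counts the same too, but the 2 libraries differed little in depth (20051735 and 20032652 counts). A minimum of 10 CPM left 0 called higher, 0 called lower and 1 interval above 1 among the listed genes, and 1 called higher and 0 lower in the wider lists, since PRODH, KHK, ACMSD, PPM1K and ACADSB lie under it. A minimum of 1 CPM in the mean of both libraries left 0 listed genes called higher and 1 interval above 1, as PRODH falls out, and 1 called higher in the wider lists. With the length trend removed, 2 listed genes were called higher (PRODH and SDS), 0 lower, and 4 had an interval above 1, a change whose cause was not tested. In the wider lists a 1.5-fold limit called 6 lower, and a 99% interval left 1 called higher. Ratios of ARG2, PCK2 and PYCR1 were above 1 with the length trend removed (1.01, 1.03 and 1.01) and below 1 otherwise, and none was called. No scaling turned the direction of PRODH, KHK, NAGS, ASS1, OAT or GLUD1, and BMAL1 stayed between 0.651 and 0.665 under 3 other scalings. No paired analysis was possible because each group has 1 library. The count columns end in different numbers, 1 for the library labelled Ad-Bmal1 and 2 for the library labelled Ad-GFP, which the labels do not explain. Depth limits the genes under 1 CPM, where a count of 0 allows up to 3 counts.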
